A study of Mus musculus with 6 samples.

Results

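The nuclear factor I (NFI) family was followed in mammary tumours of F1 female mice from 2 outcrosses. Its 4 genes, Nfia, Nfib, Nfic and Nfix, were read by 16 of the 22626 non-control probe sets of the array, namely those whose platform annotation names exactly 1 gene symbol and whose symbol is one of the 4. Nfia had 3 such probe sets, Nfib 4, Nfic 4 and Nfix 5. The family was chosen on the values of 1 Nfic probe set that separated the crosses, so the differences between crosses of its probe sets are given as a description and carry no test. One group, called AKR F1 here, held 3 tumours from adult females of the AKR/J x PyMT cross, and the other, DBA F1, held 3 from adult females of the DBA/2J x PyMT cross. All 6 samples were from a cross with a PyMT parent, PyMT being the polyomavirus middle T oncogene that drives mammary tumours, and no tumour-free or transgene-free tissue was included. The inbred strain that carried the transgene and the promoter that drives it are not given in the sources used here. Total RNA of each frozen tumour went onto 1 Affymetrix array, and deposited values are on the log2 scale. The sample titles carry 6 different numbers, but nothing says that these stand for separate animals, so every spread below is that between these samples, which may be technical, and the number of arrays limits the precision.

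NFI proteins are transcription factors that bind DNA as dimers, through a palindrome of TTGGC and GCCAA half-sites, and that activate or repress transcription depending on the gene and on the splice form. The 4 genes encode very similar DNA-binding domains and more divergent C-terminal regions, and each is spliced into several isoforms. In the mammary gland, NFI sites are known from the promoters of milk protein genes such as Wap, where NFI acts beside STAT5 and the glucocorticoid receptor in lactating epithelium.

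The arrays carried epithelial signal, as the tissue label implies: Epcam lay between 12.78 and 13.17, and the luminal keratin gene Krt8 between 12.13 and 12.75, on the 6 arrays. Of the 7 luminal markers 5 overlapped between the crosses, these 2 among them. Elf3 was wholly higher in AKR F1 (difference 0.57), as were 23.2% of all genes, and Muc1 in DBA F1 (-1.09), as were 15.2%. Array medians ran from 7.52 to 7.57. The values of the AKR F1 arrays were spread less widely (SD 1.76 to 1.91) than those of the DBA F1 arrays (SD 1.98 to 2.02), most narrowly on AKR replicate 2. The difference of 3′ minus 5′ Gapdh control probe sets, a measure of RNA quality, ran from 0.05 to 0.31 on the AKR F1 and from 0.12 to 1.20 on the DBA F1 arrays (exact two-sided permutation p = 0.3). Signals of different probe sets cannot be set against each other as amounts of RNA, so levels are compared only within a probe set, between arrays. In pieces of whole tumour, fewer cells of a type and less RNA per cell cannot be told apart.

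Of the 16 NFI probe sets, 14 had a higher mean in AKR F1 and 2 in DBA F1 tumours, where 54.6% of all probe sets were higher in AKR F1. The count of 14 was 15 after quantile normalization and 13 after median centring. In 10 of the 16 every AKR F1 value lay above every DBA F1 value, against 23.4% of all probe sets, in the other 6 the crosses overlapped, and in 0 every DBA F1 value was higher, against 15.8% of all probe sets. By limma at an adjusted p of 0.05, 1 of the 16 was called, the Nfic probe set 1422565_s_at on which the family was chosen, where 0.0972% of all probe sets were called (22 of 22626). These shares come from the contrast that led to the choice of the family, and nothing is read from them. The median difference, AKR F1 minus DBA F1, was 0.55 on the log2 scale over the 16 probe sets and 0.05 over all probe sets. AKR replicate 2 gave the highest value in 9 of the 16 and DBA replicate 1 the lowest value in 9. No share over all probe sets is given for these 2 counts, so they are not read as a trait of the family.

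**Figure D1:**
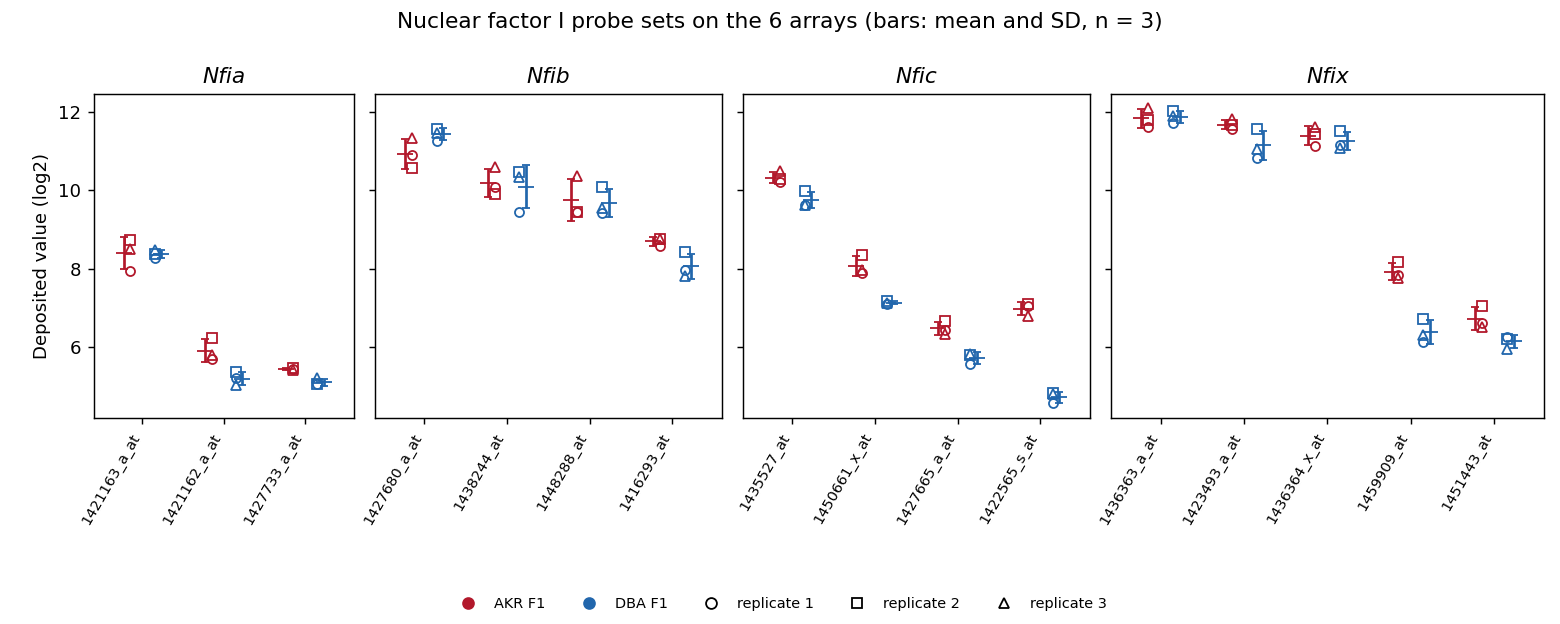
Deposited log2 value (vertical axis) of each of the 16 nuclear factor I probe sets (horizontal axis, 1 panel per gene) on the 3 AKR F1 and 3 DBA F1 arrays, with the mean and SD of each cross as a bar. The crosses are apart for all 4 Nfic probe sets, most widely for 1422565_s_at, and for 6 probe sets of the other genes.

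Nfic, known for its part in tooth root formation, was the family gene whose probe sets all kept the crosses apart. The probe set 1422565_s_at read 7.05, 7.11 and 6.79 in AKR F1 and 4.57, 4.82 and 4.79 in DBA F1 tumours. The lowest AKR F1 array thus lay 1.97 above the highest DBA F1 array, while the arrays of either cross differed little (SD 0.17 and 0.14, n = 3 each). The difference of means was 2.26 (SE 0.14), a 4.78-fold higher signal in AKR F1 tumours. On the DBA F1 arrays its values lay between percentiles 4.87 and 7.54 of all probe sets, close to the floor of the array, and on the AKR F1 arrays between percentiles 35.6 and 40.2. No detection call was used here, so whether the DBA F1 values stand above background was not tested.

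The other Nfic probe sets showed smaller differences in the same direction. Probe set 1450661_x_at, annotated to the same transcript record as 1422565_s_at, read 7.89, 8.35 and 7.97 in AKR F1 and 7.10, 7.17 and 7.13 in DBA F1 tumours, a difference of 0.94 (SE 0.15). Its DBA F1 arrays were almost level (SD 0.04), and AKR replicate 2 stood highest. The dim probe set 1427665_a_at read 6.44, 6.65 and 6.34 against 5.56, 5.81 and 5.83, a difference of 0.74 (SE 0.14). The brightest Nfic probe set, 1435527_at, read 10.20, 10.29 and 10.48 in AKR F1 and 9.62, 9.99 and 9.63 in DBA F1 tumours. That difference was 0.58 (SE 0.15), or 1.49-fold, and DBA replicate 2 came within 0.21 of the lowest AKR F1 array. The Nfic differences thus ran from 0.58 to 2.26 between probe sets. Affymetrix gives the suffix s_at to probe sets whose probes match several transcripts and x_at to those with probes that may hybridise elsewhere, so signal of other transcripts in these is possible and was not tested. With these values, a base difference between AKR/J and DBA/2J alleles where the probes bind and a difference in RNA level cannot be told apart.

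The 250 bases before the annotated Nfic start are shown because Nfic carries the widest separation, and a scan of them says whether NFI half-sites stand in front of the gene itself. They span chr10:81427174-81427423 (minus strand) in the RefSeq promoter table of GRCm38.p6, written 5′ to 3′ on the gene's strand:
Nfic: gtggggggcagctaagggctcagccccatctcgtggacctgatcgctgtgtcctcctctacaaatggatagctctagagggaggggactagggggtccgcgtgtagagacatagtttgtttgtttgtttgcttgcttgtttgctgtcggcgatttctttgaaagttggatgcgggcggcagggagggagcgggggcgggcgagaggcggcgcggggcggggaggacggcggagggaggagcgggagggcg
The letters TTGGC were searched on both strands, that is as TTGGC or GCCAA, and 0 matches were found in this window, so no letters are in capitals. Such a half-site occurs in 41.5% of the 32851 promoter windows of the same length in the table, so its absence says only that these letters are not in this window. The window had a GC content of 63.2%, against a median of 52.4% over all windows, and 19 CG dinucleotides. The table matched 3 of the 4 family genes, Nfia, Nfic and Nfix. Of these, Nfia had 0 half-sites in its window, and the 4 Nfix windows had 1, 0, 1 and 0.

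Nfix, which drives the switch from embryonic to fetal gene expression in muscle, held the next widest separation of the family. Probe set 1459909_at read 7.83, 8.18 and 7.76 in AKR F1 and 6.13, 6.73 and 6.30 in DBA F1 tumours. Every AKR F1 array lay at least 1.03 above every DBA F1 array, and the difference of means was 1.53 (SE 0.20), a 2.89-fold higher signal in AKR F1 tumours. The dim probe set 1451443_at read 6.60, 7.06 and 6.51 against 6.26, 6.21 and 5.96, a difference of 0.58 (SE 0.18) in which the crosses were 0.25 apart.

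The 3 bright Nfix probe sets, which lay between percentiles 93.9 and 98.4 of all probe sets over the 6 arrays, showed smaller differences. Probe set 1423493_a_at read 11.56, 11.65 and 11.81 in AKR F1 and 10.83, 11.55 and 11.06 in DBA F1 tumours, a difference of 0.53 (SE 0.20) with DBA replicate 2 only 0.02 under the lowest AKR F1 array. Probe set 1436364_x_at read 11.13, 11.42 and 11.60 against 11.15, 11.52 and 11.08, so the crosses overlapped and differed by 0.13 (SE 0.18), which was 0.38 after quantile normalization and 0.03 without AKR replicate 3. Probe set 1436363_a_at read 11.62, 11.79 and 12.09 against 11.71, 12.01 and 11.90, with a difference of -0.04 (SE 0.16) that was 0.22 after quantile normalization. The Nfix differences thus ran from -0.04 to 1.53 between probe sets, with overlap of the crosses at 2 of the 5.

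Nfib, which is needed for lung maturation, overlapped between the crosses at its 3 brighter probe sets. The brightest, 1427680_a_at, read 10.90, 10.56 and 11.33 in AKR F1 and 11.26, 11.55 and 11.45 in DBA F1 tumours. It was the family's widest difference towards DBA F1 tumours, at -0.49 (SE 0.21), or 1.41-fold, and AKR replicate 3 lay within the DBA F1 range. After quantile normalization this difference was -0.23. Probe set 1438244_at read 10.08, 9.90 and 10.59 against 9.46, 10.47 and 10.34, a difference of 0.10 (SE 0.31) with DBA replicate 1 lowest. Probe set 1448288_at read 9.45, 9.45 and 10.37 against 9.41, 10.09 and 9.54, a difference of 0.07 (SE 0.30) with AKR replicate 3 highest. For both of these the arrays within a cross differed more than the crosses did, and their differences turned negative without AKR replicate 3 (-0.10 and -0.23) and without DBA replicate 1 (-0.22 and -0.06). For 1438244_at this was so also without AKR replicate 2 and DBA replicate 1 together (-0.07).

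The remaining Nfib probe set, 1416293_at, annotated to the same sequence record as 1448288_at, kept the crosses apart. It read 8.57, 8.77 and 8.76 in AKR F1 and 7.95, 8.42 and 7.80 in DBA F1 tumours, a difference of 0.64 (SE 0.18), or 1.55-fold. The AKR F1 arrays were close together (SD 0.11) and DBA replicate 2 came within 0.15 of them.

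Nfia, a regulator of glial and brown fat differentiation, had a difference near 0 at its brightest probe set and differences of 0.34 and 0.71 at its dim ones. Probe set 1421163_a_at read 7.94, 8.74 and 8.51 in AKR F1 and 8.27, 8.38 and 8.47 in DBA F1 tumours. All DBA F1 values lay inside the AKR F1 range, and the difference of 0.02 (SE 0.21) changed sign with the setting, from -0.24 to 0.25. Probe set 1421162_a_at read 5.70, 6.24 and 5.79 against 5.21, 5.35 and 5.03, a difference of 0.71 (SE 0.18), or 1.64-fold. Probe set 1427733_a_at read 5.44, 5.46 and 5.43 against 5.05, 5.06 and 5.20, a difference of 0.34 (SE 0.11) over very even AKR F1 arrays (SD 0.02), which was 0.20 after quantile normalization. On no array did either of these exceed percentile 22.7 of all probe sets.

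The size of a difference moved with signal level over the whole array, which bears on the dim members. Over all probe sets ranked into deciles by mean level, the median difference ran from 0.23 in decile 3 to -0.21 in decile 10, so dim probe sets tended to lie higher in AKR F1 and bright ones in DBA F1 tumours. All 6 NFI probe sets with a mean below the median level kept the AKR F1 arrays above the DBA F1 arrays, as did 4 of the 10 above it. The 6 lay in deciles 2, 3 and 5, in which 38.0%, 37.8% and 28.1% of all probe sets did so, each decile taken alone. The 4 brighter ones lay in deciles 6, 7, 9 and 10, in which the shares were 23.0%, 15.8%, 9.01% and 5.57%. Set against the median of its own decile, the difference was 2.03 for Nfic 1422565_s_at, 1.42 for Nfix 1459909_at, 0.92 for Nfic 1450661_x_at, 0.79 for Nfic 1435527_at and 0.12 for Nfia 1427733_a_at. In all, 15 of the 16 lay above their decile median, the exception being Nfib 1427680_a_at (-0.28). Above the 95th percentile of their decile lay 8 members, the 4 of Nfic, 2 of Nfix, 1 of Nfia and 1 of Nfib. After quantile normalization the decile medians ran from 0.00 to 0.08, and the difference of Nfic 1422565_s_at was 2.15 and that of Nfix 1459909_at 1.5.

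**Figure D2:**
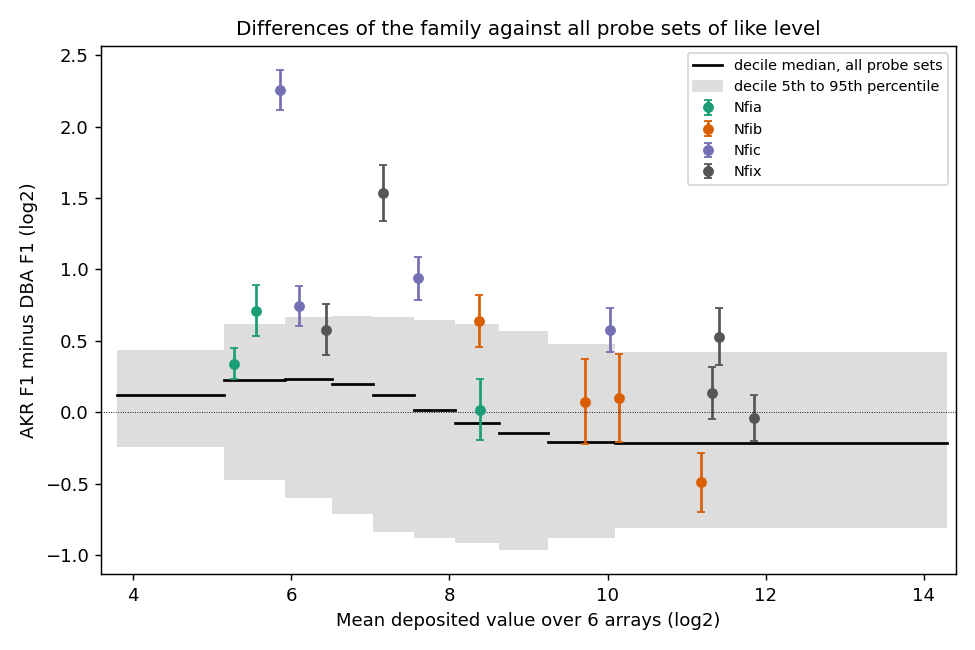
Difference of AKR F1 minus DBA F1 means with its SE (vertical axis, log2) against the mean over 6 arrays (horizontal axis, log2) for the 16 probe sets, coloured by gene, over the median and the 5th to 95th percentile of all probe sets in each decile of level. The 4 Nfic points lie above the grey band, whereas 3 of the 4 Nfib points lie inside it.

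Each of the 4 genes had a pair of probe sets annotated to 1 sequence record, which gives a check on how well probe sets of a transcript agreed. The gap between the differences of the pair was 1.32 for Nfic (2.26 and 0.94), 0.69 for Nfia (0.71 and 0.02), 0.56 for Nfib (0.64 and 0.07) and 0.18 for Nfix (0.13 and -0.04). Over all 4302 pairs of that kind on the array, from 2880 genes, the median gap was 0.25 and the 95th percentile 0.93. A larger gap than that of the Nfic pair was found in 1.30% of pairs, than that of Nfia in 473 pairs, than that of Nfib in 17.5% and than that of Nfix in 62.4%. In all 4 pairs the dimmer probe set was the one with the larger difference. Over the whole array dim probe sets tended to lie higher in AKR F1, and no share over all pairs is given. That count is thus not read as a trait of the family. Counting all probe sets of a gene, the range of differences was 1.68 for Nfic, 1.58 for Nfix and 1.13 for Nfib, against a median of 0.69 over the 708 genes with at least 4 probe sets. A larger range occurred in 20 of these genes for Nfic, in 32 for Nfix and in 115 for Nfib. The gap of the Nfic pair rests on the probe set that led to the choice of the family, and these shares are a description.

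**Figure D3:**
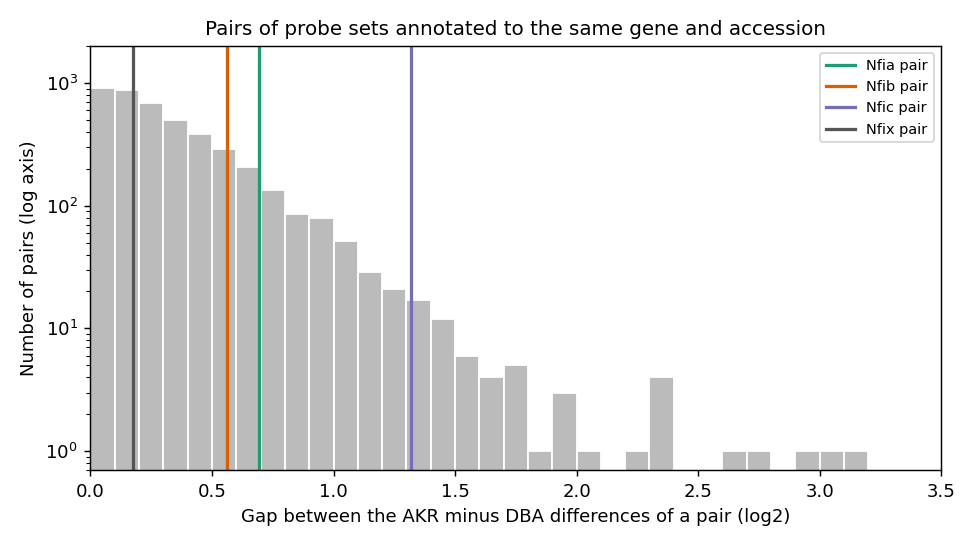
Number of probe set pairs (vertical log axis) by the gap between their AKR F1 minus DBA F1 differences (horizontal axis, log2) over 4302 pairs annotated to the same gene and sequence record. Vertical lines mark the 4 family pairs, with the Nfic pair at 1.32 in the upper tail and the Nfix pair at 0.18 below the median.

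Patterns over the arrays most like those of the family were sought by Pearson r over the 6 arrays among 10398 brighter probe sets of other genes. For Nfic 1422565_s_at the 3 highest were the homeobox gene Msx1 (r = 0.996), a probe set of the transcription factor gene Sox4 (r = 0.994) and Cluh, whose product binds messenger RNAs of mitochondrial proteins (r = 0.992). Their differences were 0.39, 3.74 and 0.62, so a like pattern went with very unequal size. A probe set that separates the crosses scores high by construction, and 114 candidates exceeded r = 0.95 with this Nfic probe set. For the brightest Nfic probe set, 1435527_at, they were the ataxin gene Atxn2 (0.992), the histone methyltransferase gene Setd1a (0.989) and the polarity kinase gene Mark2 (0.987). For Nfib 1427680_a_at they were the chromatin gene Hp1bp3 (0.997), Pdcd6ip (0.996) and the importin gene Kpna4 (0.995), all with negative differences, as that probe set has. Candidates above r = 0.95 numbered 66 for Nfic 1435527_at and 187 for Nfib 1427680_a_at, so the named genes are only the highest of many. Few candidates resembled the bright probe sets of the other genes. Nfix 1436363_a_at had Tnrc6c (0.967), Zfp292 (0.942) and Marcks (0.931), and Nfia 1421163_a_at had Sap30bp (0.956), Zfp318 (0.937) and Tfap2b (0.911).

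Genes that act with NFI in mammary tissue were taken from a list of 16, of which 14 were measured by a probe set with a single symbol. They comprise hormone receptors, the JAK2 and STAT5 pathway of prolactin signalling, luminal transcription factors and cofactors. By limma 0 of the 14 were called over all probe sets, against 0.0565% of the 12393 genes at their brightest probe set. An unadjusted p under 0.05 was found for 2 of the 14, where 25.2% of all genes had one. The median difference was -0.07, against 0.05 over all genes. Higher in AKR F1 tumours were 5 of the 14 as deposited and 10 after quantile normalization, against 54.8% of all genes as deposited, so the list had no settled direction. These figures over all genes are not at like level, since 11 of the 14 had a mean above the median level. Over all probe sets above that level the median difference was -0.14. In deciles 6 to 10 the share of probe sets higher in AKR F1 fell from 51.4% to 23.8%. In 2 of the 14, Tfap2a and Esr1, every AKR F1 value was higher, against 23.2% of all genes, and in 0 every DBA F1 value, against 15.2%. Esr1 was dim, at 5.39 to 6.49 over the arrays. In deciles 2 and 3 of level, every AKR F1 value was higher for 38.0% and 37.8% of all probe sets. The 4 members with the smallest p were the epithelial factor gene Tfap2a (0.48, SE 0.15, limma adjusted p = 0.138), the oestrogen receptor gene Esr1 (0.53), the glucocorticoid receptor gene Nr3c1 (-0.52) and the progesterone receptor gene Pgr (0.21). Tfap2a read 9.49, 9.84 and 9.96 in AKR F1 and 9.34, 9.31 and 9.21 in DBA F1 tumours, and its other probe sets differed by 0.32 and 0.56. Nr3c1 read 9.37, 8.90 and 9.50 against 9.93, 9.41 and 9.99, with overlap, and its other probe sets differed by -1.04 and -0.54. Without AKR replicate 2 the difference was 0.28 for Esr1, -0.34 for Nr3c1 and 0.09 for Pgr, and after quantile normalization it was -0.33 for Nr3c1 and 0.05 for Pgr. The prolactin effector gene Stat5a differed by 0.41 (SE 0.32) at its brightest probe set and by 0.96 at its other one. At the brightest it differed by 0.97 without AKR replicate 2 and DBA replicate 1, where it was called (limma adjusted p = 0.0278).

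Genes reported elsewhere as NFI targets, from milk protein, fat, muscle, bone and glial work, numbered 23 measured of 25 listed symbols. By limma 0 of the 23 were called over all probe sets, against 0.0565% of all genes, and 6 had an unadjusted p under 0.05, against 25.2% of all genes. The mean was higher in AKR F1 tumours for 12 and lower for 11, where 54.8% of all genes were higher, and the median difference was 0.17. Of the 23, 16 had a mean above the median level, so the share over all genes is not one at like level. Tgfb1, the growth factor gene, came closest and read 9.08, 8.64 and 9.10 in AKR F1 and 7.63, 8.31 and 7.60 in DBA F1 tumours. Its difference was 1.10 (SE 0.23, limma adjusted p = 0.0924), and DBA replicate 2 lay nearest to the AKR F1 arrays. Dspp, a dentin gene dim in these tumours, differed by 0.44 (0.28 after quantile normalization), and Nfatc4, a calcineurin-dependent factor, by 0.58, both without overlap. Apart with AKR F1 higher were 4 of the 23, these 3 and the bone factor gene Sp7 (0.49), where 23.2% of all genes were, and with DBA F1 higher 1, the muscle factor gene Mef2c (-1.13), where 15.2% were. Other Mef2c probe sets differed less, by -0.52 to -0.01. The milk protein gene Lalba read 14.35, 13.63 and 14.31 against 13.69, 12.28 and 11.76, a difference of 1.52 (SE 0.49, limma adjusted p = 0.138). DBA replicate 1 overlapped the AKR F1 arrays for Lalba, and without it the difference was 2.08 and was called (limma adjusted p = 0.0345). The whey protein gene Wap, the best known NFI target of the gland, read 13.10, 10.32 and 11.96 in AKR F1 and 13.19, 10.59 and 10.19 in DBA F1 tumours, so it varied far more within than between crosses. The beta-casein gene Csn2 read 13.88, 10.96 and 13.27 against 13.58, 6.47 and 12.73, with DBA replicate 2 far below the other arrays. Cel, which encodes the bile salt-stimulated lipase of milk, read 9.35, 8.29 and 8.68 against 8.30, 8.16 and 6.52.

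The windows before Wap, Csn2, Lalba and Cel are shown because they are the milk genes of the target list, with half-sites in capitals (TTGGC, or GCCAA for the other strand). In GRCm38.p6 the Wap window is chr11:6638650-6638899 (minus strand), the Csn2 window chr5:87699426-87699675 (minus strand), the Lalba window chr15:98482684-98482933 (minus strand) and the Cel window chr2:28563404-28563653 (minus strand), each 250 bases before the RefSeq start and written 5′ to 3′ on the gene's strand.
Wap: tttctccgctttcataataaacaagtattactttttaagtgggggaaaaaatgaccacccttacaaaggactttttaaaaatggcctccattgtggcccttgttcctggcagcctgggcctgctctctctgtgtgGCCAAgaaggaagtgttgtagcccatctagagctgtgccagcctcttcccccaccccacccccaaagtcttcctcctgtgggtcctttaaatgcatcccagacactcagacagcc
Csn2: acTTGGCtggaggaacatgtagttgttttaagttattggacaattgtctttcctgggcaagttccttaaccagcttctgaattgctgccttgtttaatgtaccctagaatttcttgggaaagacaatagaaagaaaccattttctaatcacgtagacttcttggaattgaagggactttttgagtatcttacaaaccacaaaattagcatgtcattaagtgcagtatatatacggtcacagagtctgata
Lalba: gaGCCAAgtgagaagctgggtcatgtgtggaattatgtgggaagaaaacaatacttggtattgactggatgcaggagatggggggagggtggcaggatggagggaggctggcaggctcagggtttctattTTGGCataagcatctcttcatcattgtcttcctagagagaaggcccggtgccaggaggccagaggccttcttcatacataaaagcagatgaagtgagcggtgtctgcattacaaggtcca
Cel: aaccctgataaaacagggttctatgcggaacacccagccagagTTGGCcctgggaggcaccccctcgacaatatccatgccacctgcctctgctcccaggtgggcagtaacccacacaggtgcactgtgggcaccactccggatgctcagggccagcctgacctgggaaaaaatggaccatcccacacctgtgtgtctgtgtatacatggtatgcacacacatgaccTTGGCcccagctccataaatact
The Wap and Csn2 windows held 1 half-site each, and the Lalba and Cel windows held 2 each. The table matched 18 of the 23 measured targets with 23 windows, of which 16 windows held a half-site, against 41.5% of all windows. The full palindrome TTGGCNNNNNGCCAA was in 0 of the 23 and in 0.0365% of all windows (12 of 32851). A match describes letters only and is neither a bound site nor a cause of the values above.

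**Figure D4:**
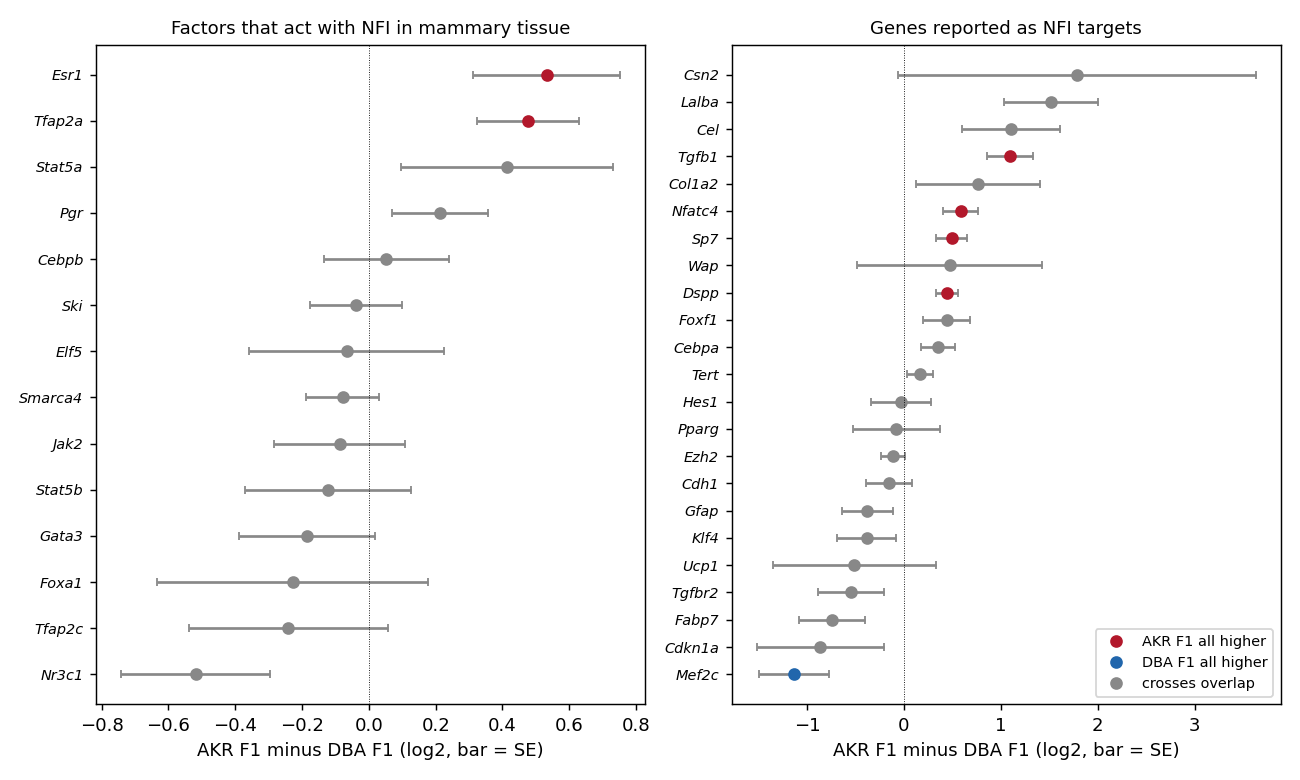
Difference of AKR F1 minus DBA F1 with its SE (horizontal axis, log2) for 14 factors that act with NFI (left) and 23 reported NFI targets (right), 1 gene per line at its brightest probe set, coloured by whether the 3 arrays of each cross overlap. Of the factors 2 lie wholly higher in AKR F1, and of the targets 4 lie wholly higher in AKR F1 and 1 in DBA F1.

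Markers of the cell types a tumour piece can hold differed between arrays. The array mean of 10 skeletal muscle markers was 8.72, 8.32 and 9.84 in AKR F1 and 11.55, 6.31 and 6.21 in DBA F1 tumours, and that of the 6 measured of 8 adipocyte markers was 9.09 on DBA replicate 1 and 6.48 to 7.41 elsewhere. The mean of 6 cartilage genes was 10.53 and 9.86 on DBA replicates 2 and 3 and 8.46 to 8.73 elsewhere. Fibroblast and matrix markers (10 genes) were lowest on DBA replicate 2 (8.95) and AKR replicate 2 (9.31) and at least 10.40 elsewhere. Basal markers (8 genes) ran from 7.56 to 8.62, endothelial markers (7 genes) from 7.52 to 7.91, leukocyte markers (10 of 11 genes) from 7.72 to 8.42 and luminal markers (7 genes) from 10.79 to 11.22. None of the 8 lists had an exact two-sided permutation p under 0.4 between crosses (0.96 or more after Benjamini-Hochberg adjustment over the 8), and the smallest that 3 against 3 arrays allow is 0.1. A list mean can hide members that differ in opposite directions. Wholly higher in AKR F1 were 2 basal, 2 leukocyte and 2 endothelial markers, against 23.2% of all genes. Wholly higher in DBA F1 were 2 basal, 2 leukocyte and 1 fibroblast marker, against 15.2% of all genes. DBA replicate 1, high in muscle and fat markers, gave the lowest value of 9 NFI probe sets, Nfib 1438244_at and Nfix 1423493_a_at among them. It also had the largest 3′ minus 5′ Gapdh difference (1.20, against 0.05 to 0.75 on the other arrays). The count of 9 has no share over all probe sets beside it, so nothing is read from it. The part of those cells or of RNA quality in these values was not tested.

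Leaving out arrays or changing the scale moved the NFI differences by unequal amounts. For Nfic 1422565_s_at the difference stayed between 2.11 and 2.35 over 11 alternatives and for Nfix 1459909_at between 1.28 and 1.70. Among these, the trended and robust prior alters variances only and cannot move a difference, and those without some arrays share the remaining ones. The call of Nfic 1422565_s_at by limma was lost without AKR replicate 1 (adjusted p = 0.0658), without AKR replicate 2 (0.0506) and without DBA replicate 3 (0.0653), settings in which at most 2 probe sets of the whole array were called. The family was chosen on this probe set from the same arrays, so its range and calls are a description and test nothing. The 4 probe sets of small difference, Nfia 1421163_a_at, Nfib 1438244_at, Nfib 1448288_at and Nfix 1436363_a_at, took both signs. Their differences ran from -0.24 to 0.25, from -0.22 to 0.33, from -0.23 to 0.29 and from -0.17 to 0.22. That of Nfix 1436364_x_at ran from 0.03 to 0.38.

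**Figure D5:**
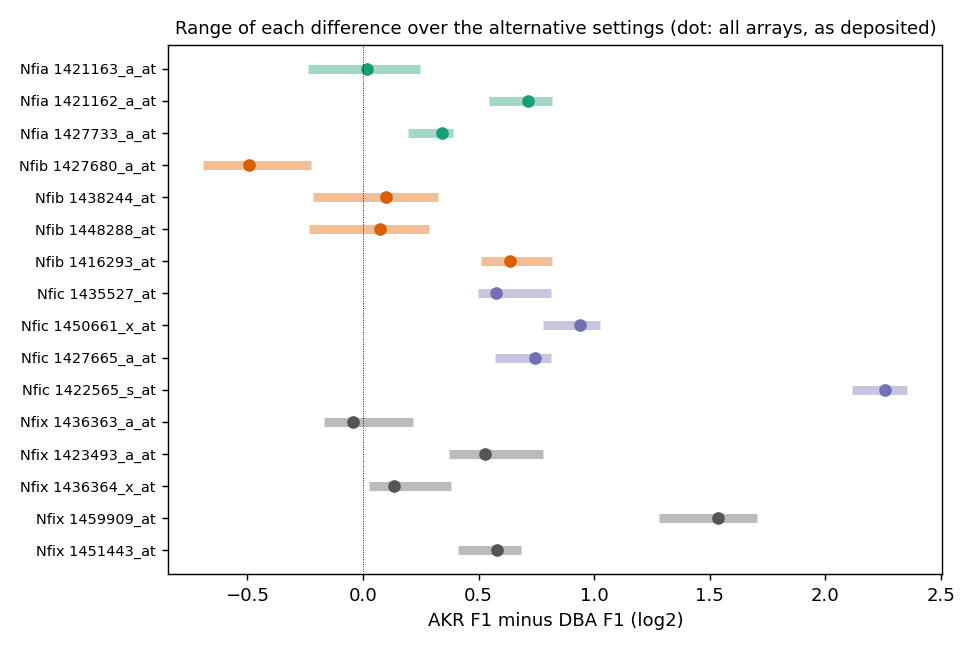
Range of the AKR F1 minus DBA F1 difference (horizontal axis, log2) of each nuclear factor I probe set (1 per line) over the alternative settings, with a dot for the value from all arrays as deposited. The bars of all Nfic probe sets stay above 0, and those of Nfia 1421163_a_at, Nfib 1438244_at, Nfib 1448288_at and Nfix 1436363_a_at cross it.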

How the data were processed

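Affymetrix arrays of 6 tumours, 3 per cross, gave the data, with groups taken from the source names and replicate numbers from the accession order, which pair nothing. The authors deposited log2 values (the scale was read from the values). The submitters' processing notes name MAS5 as well as RMA, without saying which made the table, and give no background treatment. The 64 control probe sets were removed. Gene symbols came from the platform annotation, and only probe sets with 1 symbol were named.

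The limma package (3.58.1, under R 4.3.3) fitted the difference between crosses for each probe set with moderated variances (two-sided, Benjamini-Hochberg over 22626 probe sets, called at 0.05). Errors are SDs, or SEs of the limma fit, and folds are powers of 2 of log2 differences. List genes were taken at their brightest probe set. Named were all family probe sets, members of the factor and target lists that were called or among the 4 lowest in p, and the 3 most alike patterns. Cell type markers were given as list means and counts, and of them Epcam, Krt8, Elf3 and Muc1 alone were named, with their values known. Stat5a, Wap, Csn2, Cel, Sp7, Mef2c and Cdkn1a were singled out afterwards, with their values known. The family and the lists were chosen with earlier results of these data known. The fit was checked on simulated data. Figures used matplotlib 3.10.9 in Python 3.11.15.

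Alternatives were quantile normalization, median centring, brighter probe sets only, a trended and robust prior, adjusted p of 0.10, gene means in the lists and leaving out arrays. Array weights estimated gene by gene, and leaving out AKR replicate 2 with DBA replicate 1, were added after seeing the data.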

Additional observations from a re-analysis of the deposited data

How the results depend on the processing

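The number of NFI probe sets called was 1, and it was 0 among probe sets brighter than the median (10 of the 16 remained, without 1422565_s_at), 8 with array weights, 3 without AKR replicate 2 and DBA replicate 1 together, 4 at an adjusted p of 0.10 and 0 to 2 when single arrays were left out (0 without AKR replicate 1, AKR replicate 2 or DBA replicate 3, 2 without DBA replicate 1). NFI probe sets higher in AKR F1 numbered 14, or 8 of 10 among the brighter probe sets and 11 to 15 when single arrays were left out. Calls over all 22626 probe sets numbered 22, and 36 after quantile normalization, 3712 with array weights, 657 without both arrays and 810 at 0.10. Among brighter probe sets they numbered 102 of 11313. Without single arrays they numbered 1 to 263 of 22626 (263 where DBA replicate 1 was dropped, 11, 2 and 1 where AKR replicates 3, 2 and 1 in turn were, and 1 for DBA replicate 3). Factors acting with NFI that were higher in AKR F1 numbered 5, and 10 after quantile normalization, 3 of 11 among brighter probe sets, 9 with array weights, 9 without both arrays, 8 by gene means and 4 to 9 without single arrays (9 without AKR replicate 2). Their calls, 0, became 1 without both arrays (Stat5a). Calls among the 23 reported targets, 0, became 8 with array weights, where 3712 of all 22626 probe sets were called. They became 2 without both arrays (Lalba and Cdkn1a), against 657 of all, and 1 at 0.10 (Tgfb1), against 810 of all. Without single arrays they numbered 0 to 1 (Lalba, without DBA replicate 1, against 263 of all). The causes were not tested. Other settings kept these counts within 1.5 times. The default array weight estimate stopped before converging and was not used, and the gene-by-gene estimate gave AKR replicate 2 the lowest weight (0.19). Dim members limit what can be read, since without detection calls a low signal may be background. No paired analysis was possible because the replicate numbers only name the samples.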
